A study of Homo sapiens with 8 samples.

Results

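The genes described here are 10 genes of the adherens junction and of the epithelial-mesenchymal transition (EMT), chosen by symbol: CDH1, CDH3, CTNNA1, CTNNB1, CTNND1, VIM, ZEB1, ZEB2, SNAI2 and ESRP1. They are 10 of the 64253 genes counted in each library, and 8 of the 10 had enough reads to be tested. RNA-seq was carried out on the human colon cancer line HCT-8 and on HCT-8/FU, its 5-FU-resistant counterpart, both in unconditioned medium. The other groups were HCT-8 cells too, but kept in conditioned medium (CM), taken from HCT-8 or from HCT-8/FU cultures after 48 h. The labels call these groups CM of HCT-8 and CM of HCT-8/FU. They are called sensitive CM and resistant CM in the text and keep their labelled names in the plots. Each of the 4 groups had 2 replicates. HCT-8/FU is a single resistant line, and nothing in the labels says that replicates came from separate cultures, so p-values measure only the spread between these libraries, which may be technical.

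Adherens junctions hold neighbouring epithelial cells together. The extracellular part of a classical cadherin binds cadherins of the next cell, while its tail is held by β-catenin and p120-catenin, and α-catenin links the complex to actin. In EMT, transcription factors of the ZEB, SNAI and TWIST families are known to repress CDH1 and other epithelial genes. They favour mesenchymal genes such as VIM, whereas ESRP1 keeps epithelial splicing patterns.

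Counts on genes ranged from 5804124 to 34881349 per library. Between 20% and 29.6% of records were not aligned in HCT-8 replicate 1, HCT-8/FU replicate 2 and sensitive CM replicate 1, against 3.58% to 4.43% in the other 5 libraries. Among epithelial markers, means over all libraries were 5049 CPM (counts scaled to a common library size) for KRT8, 2215 CPM for KRT18, 428 CPM for EPCAM and 97.9 CPM for CDX2. The lowest of the 10 colon epithelial markers was KRT20, at 9.16 CPM. Of the markers of other cell types, PDGFRA, COL1A2, PTPRC, CD3E and HBB had no count in any library, and the highest were COL1A1 at 11.4 CPM, PDGFRB at 6.02 CPM and PECAM1 at 1.39 CPM. CPM are scaled by TMM, edgeR's correction for library composition. Since RNA was taken from whole cultures, fewer cells with a transcript and less of it per cell cannot be told apart.

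Divided by exonic length, CDH1 was the most abundant of the 10 genes in every library. Its group means lay between 138 and 181 CPM per kb. CTNNB1 (24.6 to 26.7 CPM per kb), CTNND1 (22.4 to 26.2 CPM per kb) and CDH3 (15.6 to 22.3 CPM per kb) followed. VIM reached 8.10 to 14.0 CPM per kb, ESRP1 5.14 to 13.2 CPM per kb and CTNNA1 5.41 to 8.49 CPM per kb. ZEB1 was the lowest of the 8 tested genes, at 0.544 to 1.70 CPM per kb. The level of CDH1 per length thus exceeded that of each catenin measured, and was 5.16 to 7.05 times that of CTNNB1. CTNNB1 and CTNND1 had close levels per length, with CTNND1 at 0.879 to 1.11 times CTNNB1. These levels depend on the length used: over the longest transcript, CTNNA1 in HCT-8 came to 19.6 CPM per kb in place of 8.49. The ratios between genes depend on it too. The exonic lengths used were 6076 bases for CDH1 and 11759 for CTNNB1, whereas the longest transcripts have 4811 and 4888 bases.

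**Figure D1:**
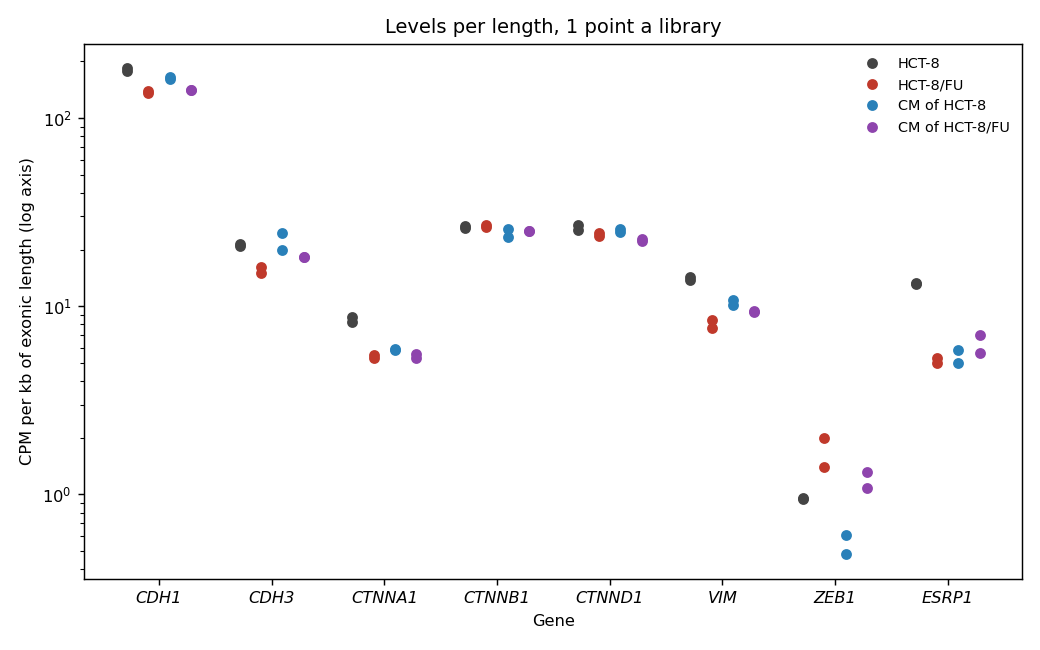
Level per length of the 8 tested genes, in CPM per kb of exonic length on a log axis, with 1 point for each of the 8 libraries, coloured by group. CDH1 lies highest in all 4 groups (138 to 181 CPM per kb as group means) and ZEB1 lowest (0.544 to 1.70 CPM per kb).

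Promoter windows were looked up for the 10 genes in the RefSeq promoter table (GRCh38.p14). It holds 14 windows for 5 of them, CTNNA1, CTNNB1, VIM, ZEB1 and ZEB2, and lists none for CDH1, CDH3, CTNND1, SNAI2 and ESRP1. The motif searched was CACCTG, with its reverse complement CAGGTG, so that both strands were covered. This E-box is the one that ZEB and SNAI proteins are known to bind. Shown are the 250 bases before a transcription start, 5′ to 3′, for the first of the 4 windows of CTNNA1 and for VIM, whose mRNAs were lower in HCT-8/FU than in HCT-8, and for the windows of ZEB1 that hold the motif. Capitals mark the motif. All 4 stretches are on the plus strand.
CTNNA1, chr5:138753175-138753424: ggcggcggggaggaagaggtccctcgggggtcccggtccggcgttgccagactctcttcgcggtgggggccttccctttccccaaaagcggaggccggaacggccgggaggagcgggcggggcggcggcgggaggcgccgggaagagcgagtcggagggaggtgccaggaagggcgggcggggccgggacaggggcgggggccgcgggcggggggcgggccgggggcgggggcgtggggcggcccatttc
VIM, chr10:17227991-17228240: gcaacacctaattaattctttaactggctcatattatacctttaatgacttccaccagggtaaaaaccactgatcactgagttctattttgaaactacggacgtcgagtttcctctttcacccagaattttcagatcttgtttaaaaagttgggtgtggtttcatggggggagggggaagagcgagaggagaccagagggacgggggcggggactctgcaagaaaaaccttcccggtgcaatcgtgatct
ZEB1, chr10:31318167-31318416: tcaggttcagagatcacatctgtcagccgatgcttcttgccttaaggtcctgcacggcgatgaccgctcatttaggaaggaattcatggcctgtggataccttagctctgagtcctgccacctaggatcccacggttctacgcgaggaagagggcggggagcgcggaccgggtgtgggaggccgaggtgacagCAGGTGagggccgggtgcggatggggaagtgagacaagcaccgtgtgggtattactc
ZEB1, chr10:31318966-31319215: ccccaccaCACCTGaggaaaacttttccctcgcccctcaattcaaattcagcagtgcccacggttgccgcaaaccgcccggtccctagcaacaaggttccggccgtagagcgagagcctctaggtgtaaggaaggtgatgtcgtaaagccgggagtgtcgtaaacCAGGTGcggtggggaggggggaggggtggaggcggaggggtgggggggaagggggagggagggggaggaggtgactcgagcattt
The motif was in 2 of the 7 ZEB1 windows, 57 bases before the start in the first and 242 and 85 bases before it in the other. It was in none of the windows of CTNNA1 (4 windows), CTNNB1, VIM and ZEB2. Of all 35116 windows in the table, 17.5% hold it in the same 250 bases. The printed CTNNA1 stretch is 80.0% G and C and that of VIM 46.0%. A match in letters is a description and says nothing of binding in these cells.

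The first comparison was HCT-8/FU against HCT-8. ESRP1, VIM and CTNNA1 were lower in the resistant line and ZEB1 was higher, and these 4 of the 8 tested genes were differentially expressed (DE). DE means a false discovery rate (FDR) of at most 0.05 and a change of at least 1.5-fold, which is 0.58 on the log2 scale. The FDR is the Benjamini-Hochberg adjusted p of edgeR's quasi-likelihood test over all 20305 genes tested, of which 21.3% were DE, 13.2% higher and 8.12% lower. By the FDR alone 6 of the 8 genes passed, and 36.7% of all tested genes. Levels of 7 of the 8 genes did not overlap between both groups, as was the case for 65.0% of all tested genes. The median log2 fold change of the 8 genes was -0.41, against 0.0082 over all tested genes.

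In the second comparison, resistant CM against sensitive CM, ZEB1 was the only DE gene of the 8, and it was higher in resistant CM. Of all tested genes, 9.25% were DE there and 7.97% were DE and higher. The FDR alone was passed by 3 of the 8 genes, ZEB1 with CDH1 and CDH3, and by 19.7% of all genes. The 8 genes had a median log2 fold change of -0.14, against -0.059 over all genes, and 6 did not overlap between the groups (61.4% of all genes). In the third comparison, sensitive CM against HCT-8, ESRP1 and ZEB1 were DE and lower in CM, where 8.15% of all genes were DE and 4.29% DE and lower. CTNNA1 and VIM also passed the FDR, which makes 4 of the 8 genes against 19.4% of all genes. The groups did not overlap for 6 of the 8 (54.3% of all genes), and the median was -0.28 against 0.014. A comparison of resistant CM with HCT-8, added after the levels had been seen, had 2 DE genes of the 8, CTNNA1 and ESRP1, both lower, against 10.4% of all genes DE and 3.28% DE and lower. The third comparison shares its libraries with the first and with the second, so its values are given beside theirs without a measure of likeness.

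**Figure D2:**
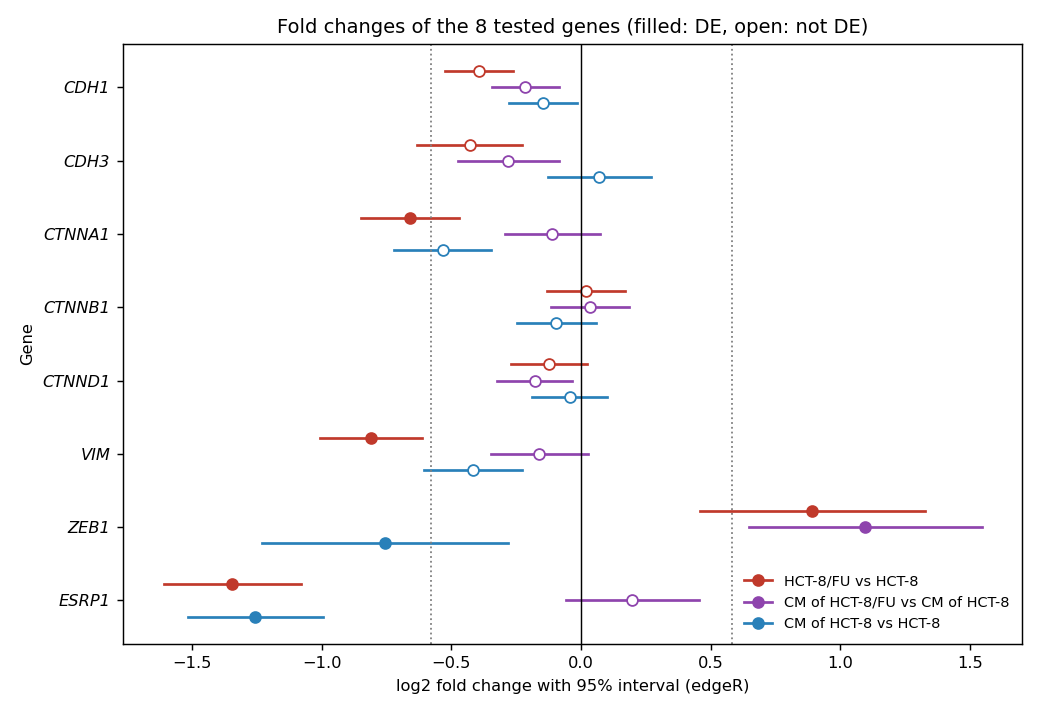
Log2 fold change (horizontal axis) of the 8 tested genes in 3 comparisons, with the 95% interval from edgeR as a line; filled points are DE, open points are not, and dotted lines mark a 1.5-fold change. ESRP1 lies at -1.35 in HCT-8/FU and -1.26 in sensitive CM but at 0.20 in resistant CM against sensitive CM, and ZEB1 lies to the right in HCT-8/FU and resistant CM and to the left in sensitive CM.

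CDH1 (ENSG00000039068, chr16:68737292-68835537, plus strand) encodes E-cadherin, the main cadherin of epithelial cells. It was measured at 1117 and 1084 CPM in HCT-8 and at 846 and 827 CPM in HCT-8/FU. In sensitive CM it was at 1002 and 986 CPM, and in resistant CM at 852 and 861 CPM. Replicates lay close together, and the groups fell in the order HCT-8, sensitive CM, resistant CM, HCT-8/FU without any overlap. CDH1 was lower in HCT-8/FU by a log2 difference of -0.40 ± 0.0615 (SE), with an edgeR FDR of 0.00012, but at 0.76-fold it was within the 1.5-fold limit and not DE. Against sensitive CM, resistant CM had a log2 difference of -0.21 ± 0.0612 (edgeR FDR 0.022), and sensitive CM differed from HCT-8 by -0.15 ± 0.0613 (edgeR FDR 0.11). Neither was DE.

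CDH3 (ENSG00000062038, chr16:68636189-68727468, plus strand) encodes P-cadherin and is the neighbour of CDH1 on the same strand. It was counted at 136 and 133 CPM in HCT-8, 104 and 95.4 CPM in HCT-8/FU, 157 and 128 CPM in sensitive CM, and 116 CPM in both libraries of resistant CM. HCT-8/FU was lowest, and the libraries of sensitive CM lay on either side of those of HCT-8. CDH3 had a log2 fold change of -0.43 ± 0.0942 in HCT-8/FU (edgeR FDR 0.0020) and of -0.28 ± 0.0910 in resistant CM against sensitive CM (edgeR FDR 0.041), both under the 1.5-fold limit. With 1 library left out, the value between the CM groups ranged from -0.43 to -0.13. Sensitive CM against HCT-8 gave 0.07, with a 95% interval from -0.13 to 0.27. The ratio of CDH3 to CDH1 per length stayed between 0.11 and 0.149 in the 8 libraries, so that P-cadherin mRNA was a small part of the cadherin mRNA in each of them. An antisense transcript, CDH3-AS1, lies opposite 8.40% of the exonic bases of CDH3, and ENSG00000260798 opposite 5.71% of those of CDH1.

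CTNNA1 (ENSG00000044115, chr5:138610967-138935034, plus strand) encodes αE-catenin, the link from the cadherin complex to actin. HCT-8 had 72.7 and 77.2 CPM. HCT-8/FU had 47.0 and 48.6 CPM, sensitive CM had 52.4 and 51.5 CPM, and resistant CM had 46.9 and 49.2 CPM. Unconditioned HCT-8 stood above the other 3 groups, whose 6 libraries lay within 46.9 to 52.4 CPM. In HCT-8/FU, CTNNA1 fell by 0.66 ± 0.0885 on the log2 scale against HCT-8 (edgeR FDR 3e-05), to 0.634-fold. In sensitive CM it was at 0.69-fold of HCT-8, a log2 difference of -0.53 ± 0.0869 (edgeR FDR 0.00057) that missed the fold limit. It passed that limit at -0.58 with DESeq2, with DESeq2's size factors and without the 3 libraries in which many records failed to align. Resistant CM differed from sensitive CM by -0.11, with a 95% interval from -0.29 to 0.07. When TMM took sensitive CM replicate 2 as its reference library, in place of HCT-8 replicate 2, the log2 fold change in HCT-8/FU was -0.57, just under the fold limit.

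CTNNB1 (ENSG00000168036, chr3:41194741-41260096, plus strand) encodes β-catenin, which binds the cadherin tail and also carries the Wnt signal to the nucleus. Its 8 libraries ranged from 275 CPM in sensitive CM replicate 1 to 318 CPM in HCT-8/FU replicate 1. HCT-8 (314 and 306 CPM) and HCT-8/FU (318 and 309 CPM) overlapped, and both libraries of resistant CM (297 CPM each) lay within the range of sensitive CM (275 and 304 CPM). The log2 fold change was 0.02 in HCT-8/FU (95% interval -0.13 to 0.17), 0.03 in resistant CM against sensitive CM (-0.12 to 0.18) and -0.10 in sensitive CM against HCT-8 (-0.25 to 0.06). CTNND1 (ENSG00000198561, chr11:57753243-57819546, plus strand) encodes p120-catenin, which holds cadherins at the cell surface. It was at 413 and 384 CPM in HCT-8, 371 and 359 CPM in HCT-8/FU, 393 and 379 CPM in sensitive CM, and 337 and 345 CPM in resistant CM. Resistant CM was lowest, and sensitive CM overlapped HCT-8. No comparison called it DE, and its largest log2 difference of the first 3 comparisons was -0.18 ± 0.0679 between the CM groups (edgeR FDR 0.080). On the same strand, ENSG00000288534, which was not among the counted genes, overlaps 39.1% of the exonic bases of CTNND1. ENSG00000254732 overlaps 12.7% of them and had 3 to 23 counts per library. How reads in the bases shared with the latter were assigned is not known.

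Base composition differed among the 8 genes. CTNNB1 has a GC content of 40.9% over its exons, ZEB1 of 41.3%, CTNND1 of 42.9% and ESRP1 of 43.9%, whereas CTNNA1 (48.1%), CDH1 (48.5%), VIM (50.3%) and CDH3 (53.3%) have more. The fold changes of all genes followed GC content, with Spearman correlations across 19857 genes of -0.397 in HCT-8/FU against HCT-8, -0.398 in resistant CM against sensitive CM and 0.301 in sensitive CM against HCT-8. Genes are not independent replicates, and the correlations are given as a description. A correction that removes each library's trend on GC content and length put CTNNB1 at -0.45 ± 0.0893 in HCT-8/FU (edgeR FDR 0.0017) and at -0.43 ± 0.0885 between the CM groups (edgeR FDR 0.0077). CTNND1 then stood at -0.47 ± 0.0863 (edgeR FDR 0.0010) and -0.53 ± 0.0856 (edgeR FDR 0.0017). For sensitive CM against HCT-8 the corrected values turned to 0.13 for CTNNB1 and 0.14 for CTNND1, neither of them DE. CTNND1 and CTNNB1 also have the longest exonic lengths of the 8 genes, 15212 and 11759 bases. The parts of GC content and of length in these shifts were not separated. The correction removes a trend of any origin, and what gave rise to the trend was not tested.

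**Figure D3:**
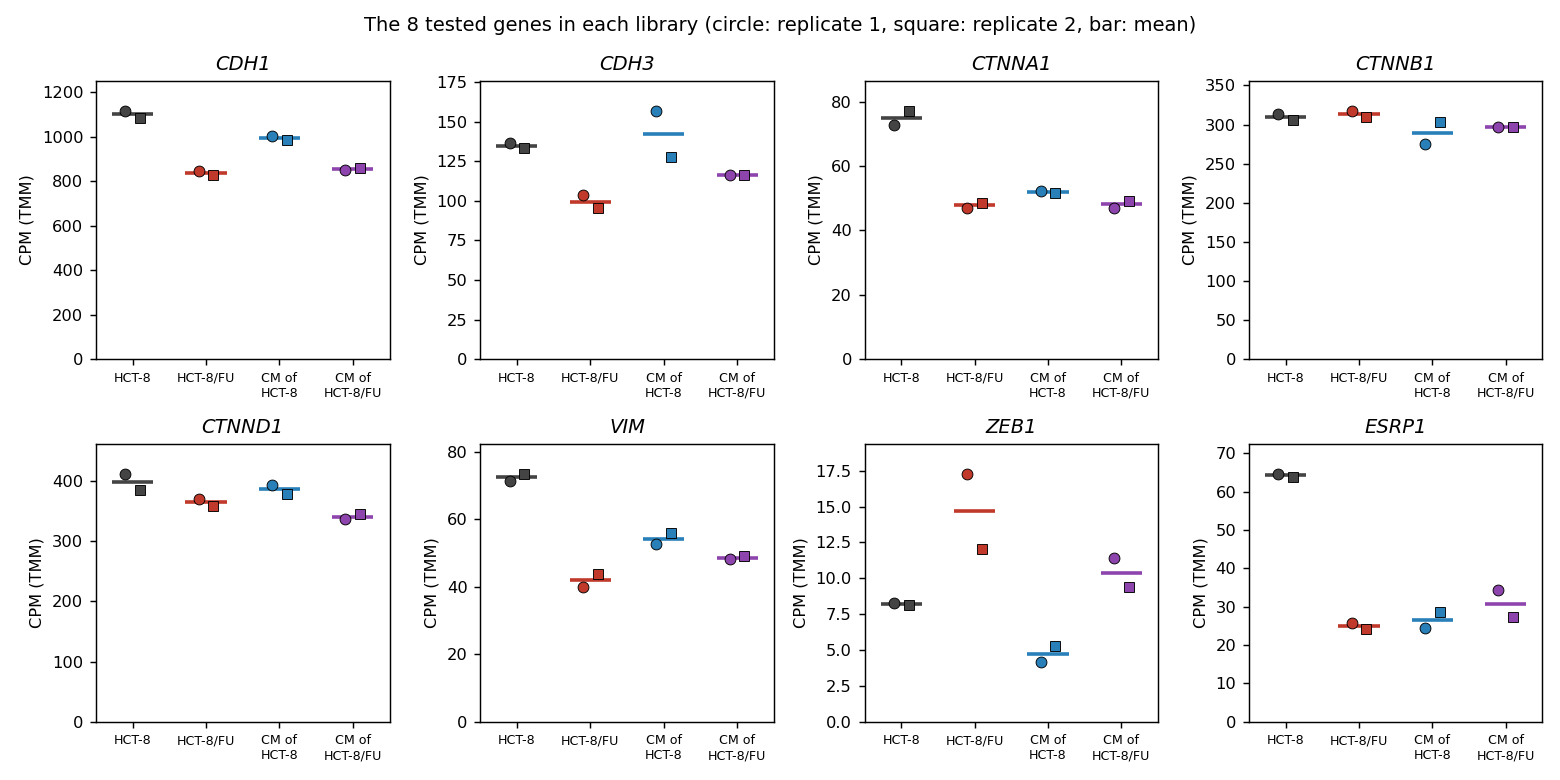
CPM (vertical axes, from 0) of the 8 tested genes in the 8 libraries, with circles for replicate 1, squares for replicate 2 and bars for group means. CTNNA1, VIM and ESRP1 are highest in unconditioned HCT-8, CTNNB1 stays within 275 to 318 CPM, and ZEB1 is lowest in sensitive CM.

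VIM (ENSG00000026025, chr10:17228241-17237593, plus strand) encodes vimentin, the intermediate filament protein used as a mesenchymal marker. HCT-8 had 71.5 and 73.6 CPM, and HCT-8/FU had 39.9 and 44 CPM. Sensitive CM had 52.6 and 55.9 CPM and resistant CM had 48.4 and 49.0 CPM. No pair of groups overlapped, with HCT-8 highest and HCT-8/FU lowest. VIM fell by 0.81 ± 0.0921 on the log2 scale in HCT-8/FU (edgeR FDR 6.2e-06), to 0.571-fold. In sensitive CM it was at 0.749-fold of HCT-8, a log2 difference of -0.42 ± 0.0890 (edgeR FDR 0.0040) that did not reach the fold limit, and between the CM groups the difference was -0.16 ± 0.0877 (edgeR FDR 0.23). Per length, CDH1 exceeded VIM by 12.6 to 18.1 times in the 8 libraries, with the lowest ratios in HCT-8 (13.3 and 12.6) and the highest mean in HCT-8/FU (18.1 and 16.0). VIM-AS1, transcribed from the opposite strand, covers 12.7% of the exonic bases of VIM and had 152 to 1060 counts per library. The strand setting of the counting was not given in the sources used here. Whether reads in the shared bases were counted for VIM, for its antisense partners or for neither is therefore not known.

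ZEB1 (ENSG00000148516, chr10:31318495-31529814, plus strand) encodes a zinc finger repressor of E-cadherin and other epithelial genes. It was rare, with 36 to 521 counts per library. HCT-8 had 8.29 and 8.16 CPM, HCT-8/FU had 17.3 and 12 CPM, sensitive CM had 4.14 and 5.27 CPM, and resistant CM had 11.4 and 9.41 CPM. The groups did not overlap, and their order was HCT-8/FU, resistant CM, HCT-8, sensitive CM. In level, ZEB1 was above HCT-8 in HCT-8/FU and resistant CM and below it in sensitive CM. ZEB1-AS1, on the opposite strand, covers 4.58% of the exonic bases of ZEB1 and had 44 to 235 counts per library.

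ZEB1 rose by a log2 fold change of 0.89 ± 0.204 in HCT-8/FU against HCT-8 (1.86-fold, edgeR FDR 0.0028). It rose by 1.10 ± 0.210 in resistant CM against sensitive CM (2.14-fold, edgeR FDR 0.0016). In sensitive CM it fell by 0.76 ± 0.222 on the log2 scale against HCT-8 (0.592-fold, edgeR FDR 0.026). The added comparison of resistant CM with HCT-8 gave 0.34 ± 0.198 (edgeR FDR 0.24), so ZEB1 in resistant CM was not DE against HCT-8. After the correction for GC content and length, ZEB1 stood at 0.47 ± 0.202 in HCT-8/FU (edgeR FDR 0.10), at 0.71 ± 0.208 between the CM groups (edgeR FDR 0.045) and at -0.57 ± 0.219 in sensitive CM (edgeR FDR 0.11). Without HCT-8/FU replicate 1, the first comparison gave 0.54 (edgeR FDR 0.14). Without HCT-8 replicate 1, HCT-8 replicate 2 or sensitive CM replicate 1, the third gave an edgeR FDR of 0.079, 0.10 and 0.056. ZEB1 kept its direction in all of these fits.

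ZEB2, the paralog of ZEB1, and SNAI2, which encodes the repressor Slug, were near or at 0. ZEB2 (ENSG00000169554, chr2:144364364-144521057, minus strand) had 0 counts in all 8 libraries. SNAI2 (ENSG00000019549) had 3 counts in all, 1 each in HCT-8/FU replicate 1, sensitive CM replicate 2 and resistant CM replicate 1. A count of 0 allows a level of up to 3 counts, which is 0.0887 CPM in the deepest library and 0.501 CPM in the shallowest, for counting error only. Of the EMT repressors among the 10 genes, ZEB1 alone was therefore above this limit.

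ESRP1 (ENSG00000104413, on chromosome 8) encodes an RNA-binding protein that directs epithelial splicing of transcripts such as those of FGFR2, CD44 and CTNND1. HCT-8 had 64.8 and 63.8 CPM. HCT-8/FU had 25.9 and 24.2 CPM, sensitive CM had 24.4 and 28.6 CPM, and resistant CM had 34.3 and 27.3 CPM. Unconditioned HCT-8 was above every other library, and the other 3 groups lay within 24.2 to 34.3 CPM. ESRP1 fell by 1.35 ± 0.124 on the log2 scale in HCT-8/FU (0.394-fold, edgeR FDR 8.3e-07), the largest change among the 8 genes in that comparison. It fell by 1.26 ± 0.121 in sensitive CM against HCT-8 (0.419-fold, edgeR FDR 8.3e-06) and by 1.06 ± 0.115 in resistant CM against HCT-8 (0.48-fold, edgeR FDR 1.5e-05). Between the CM groups it differed by 0.20, with a 95% interval from -0.06 to 0.45. After the correction for GC content and length, ESRP1 stood at -1.51 in HCT-8/FU and at -1.23 in sensitive CM, and both remained DE by edgeR.

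Ratios within a library set the partners against each other. CTNNA1 stood at 0.309 and 0.336 of CTNNB1 per length in HCT-8, and at 0.197 to 0.254 in the other 6 libraries. CDH1 was at 6.89 and 6.87 times CTNNB1 in HCT-8, 5.16 and 5.17 times in HCT-8/FU, 7.05 and 6.29 times in sensitive CM, and 5.56 and 5.61 times in resistant CM. These ratios are not corrected for GC content and depend on the exonic lengths used. After the correction CTNNB1 had the lower log2 fold change of both genes, with CDH1 at -0.35 and CTNNB1 at -0.45 in HCT-8/FU, and at -0.16 and -0.43 between the CM groups. ESRP2 is the paralog of ESRP1. ESRP1 exceeded ESRP2 per length in HCT-8, at ratios of 1.46 and 1.20, and was below it in the other 6 libraries, at 0.397 to 0.583. ESRP1 was 13.9 times ZEB1 in both HCT-8 libraries, 2.65 and 3.57 times in HCT-8/FU, 10.5 and 9.63 times in sensitive CM, and 5.34 and 5.16 times in resistant CM. HCT-8 was highest and HCT-8/FU lowest in this last ratio. The ratios are values of single libraries and were not tested.

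**Figure D4:**
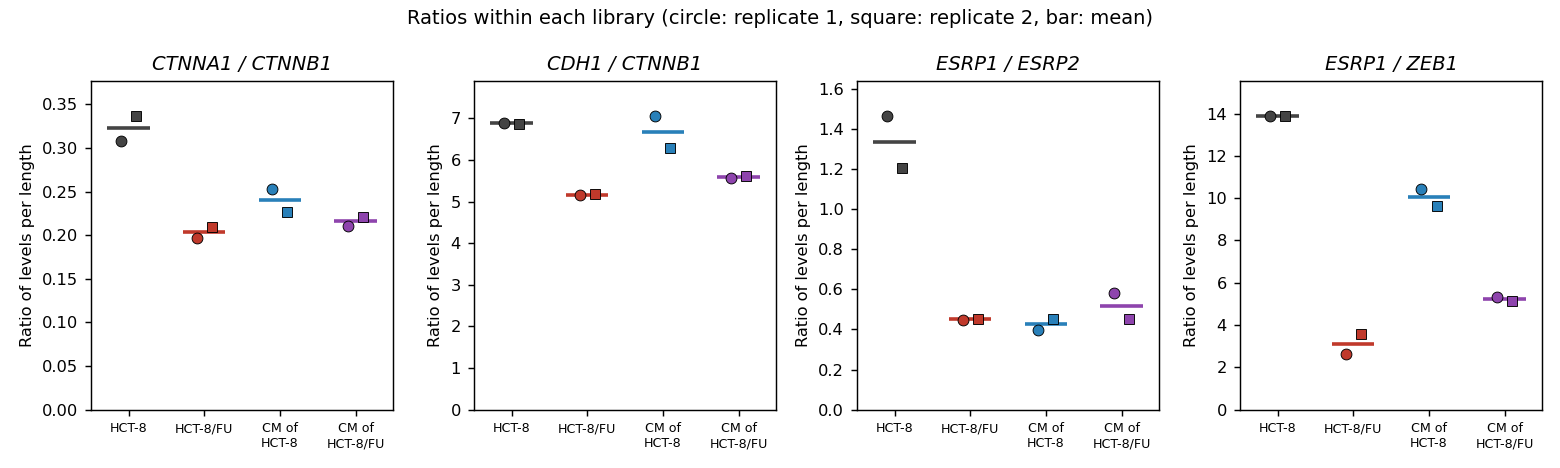
Ratios of levels per length within each library (vertical axes, from 0), with circles for replicate 1, squares for replicate 2 and bars for group means. CTNNA1 to CTNNB1 and ESRP1 to ESRP2 are highest in HCT-8 (0.309 and 0.336, and 1.46 and 1.20), while ESRP1 to ZEB1 runs from 13.9 in HCT-8 to 2.65 in HCT-8/FU replicate 1.

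Whether resistance and medium of resistant cells went with different changes was tested as the difference of the log2 fold changes of the first and second comparison, which share no library. ESRP1 (-1.54 ± 0.172, edgeR FDR 4.3e-05) and VIM (-0.65 ± 0.127, edgeR FDR 0.0036) had lower log2 fold changes in HCT-8/FU than in resistant CM, and these were 2 of the 8 genes, while 7.69% of all genes passed this test, 4.14% with a negative difference. CTNNA1 differed by -0.55 ± 0.123 (edgeR FDR 0.0089), under the fold limit. By the FDR alone these 3 of the 8 genes passed, and 11.6% of all genes. The difference for CTNNA1 was past the fold limit at -0.60 with no filter on low counts, -0.60 without HCT-8 replicate 1, -0.59 without HCT-8 replicate 2 or resistant CM replicate 1, and -0.62 without the 3 libraries in which many records failed to align (edgeR FDR 3e-04). Without resistant CM replicate 2 its edgeR FDR was 0.072. Without HCT-8/FU replicate 1, the difference for VIM was -0.58, also just under it. For ZEB1 the difference was -0.21, with a 95% interval from -0.83 to 0.42, which leaves room for changes of unequal size. For CDH1 it was -0.18 (-0.37 to 0.0043). The low levels of ESRP1, VIM and CTNNA1 in sensitive CM enter this test, since that group is the reference of the second comparison.

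Other genes of the junctions and of EMT were counted in longer lists. Their counts stand against 21.3%, 9.25% and 8.15% of all genes in the 3 comparisons in turn, and their medians in HCT-8/FU against 0.0082 over all genes. Of 16 tested genes of the adherens junction, 3 were DE in HCT-8/FU. LIMA1, an actin-binding protein at these junctions, rose by 0.98 ± 0.0933 (edgeR FDR 1.1e-06), while NECTIN1, a nectin that starts cell contacts, fell by 1.24 ± 0.105 (edgeR FDR 3.8e-07), and the third was CTNNA1. The median of the list was -0.11. Between the CM groups 0 of the 16 were DE by edgeR and 0 by DESeq2, with 9 at an unadjusted p under 0.05. NECTIN1 was also the one DE gene in the third comparison. The count there was 0 without sensitive CM replicate 2. It was 2, with CTNNA1, by DESeq2, with its size factors or without the 3 libraries in which many records failed to align, and 2, with LIMA1 higher, after the correction for GC content and length.

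Desmosomes anchor keratin filaments at cell contacts. Of 8 tested desmosome genes, 4 were DE and higher in HCT-8/FU and 0 were DE and lower, with a median of 0.42. JUP, which encodes plakoglobin, was at -0.48 ± 0.0733 there (edgeR FDR 9.6e-05), under the fold limit. DSC2, a desmosomal cadherin, rose by 1.05 ± 0.0849 (edgeR FDR 2.5e-07) and DSP, the desmoplakin gene, by 0.94 ± 0.0836 (edgeR FDR 6e-07). In the second comparison DSC2 (0.68 ± 0.0826, edgeR FDR 3.3e-05) and DSG2 (0.67 ± 0.0727, edgeR FDR 1e-05) rose. The third comparison had 0 of 8 genes that were DE by edgeR and by DESeq2, with 2 at an unadjusted p under 0.05. With the correction for GC content and length, only DSP of these 4 genes was DE in HCT-8/FU (0.83 ± 0.106, edgeR FDR 6e-05), and 0 were DE between the CM groups.

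Tight junction genes went both ways. In HCT-8/FU, 5 of 18 were DE, with TJP1 (0.62 ± 0.0936, edgeR FDR 8.7e-05), the scaffold protein ZO-1, and CLDN2 (0.66 ± 0.0924, edgeR FDR 4.6e-05), a pore-forming claudin, higher. F11R was lower, as were the claudins CLDN7 (-0.96 ± 0.0710, edgeR FDR 1.3e-07) and CLDN3 (-0.70 ± 0.141, edgeR FDR 0.0010). The count was 3 without HCT-8/FU replicate 1. With the correction for GC content and length TJP1 stood at 0.30 in HCT-8/FU (edgeR FDR 0.040) and was not DE. TJP1 alone was DE between the CM groups (0.64 ± 0.0931, edgeR FDR 0.00016), and it was not with that correction (0.33, edgeR FDR 0.056) or without sensitive CM replicate 2. CLDN2 was also the one DE gene of the 18 in the third comparison (0.67 ± 0.0916, edgeR FDR 0.00015). With that correction it stood at 0.56 (edgeR FDR 0.0018), just under the fold limit. The count was 2 without HCT-8 replicate 2.

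Of 12 EMT transcription factors, 6 were tested. ZEB1 and TCF4, a class I helix-loop-helix factor, were DE and higher in HCT-8/FU and in resistant CM against sensitive CM, and in the third comparison both were DE and lower in sensitive CM. Without HCT-8/FU replicate 1 the first comparison called 1 of the 6, and without resistant CM replicate 1 the second called 1, while the third called 0 to 2 with 1 library left out. TCF4 had log2 fold changes of 0.88 ± 0.201 (edgeR FDR 0.0028) in HCT-8/FU and 0.92 ± 0.206 (edgeR FDR 0.0050) between the CM groups. After the correction for GC content and length, TCF4 stood at 0.31 (edgeR FDR 0.29) and 0.28 (edgeR FDR 0.46). In sensitive CM against HCT-8 it had -0.66 ± 0.218 (edgeR FDR 0.047), and 14 of 21 alternatives lost this call, among them DESeq2 (FDR 0.055), the replicate block (edgeR FDR 0.057) and the correction (-0.31, edgeR FDR 0.40). Of the 12 mesenchymal genes tested, 7 were DE in HCT-8/FU, with 2 higher and 5 lower and a median of -0.33. FN1, fibronectin, rose by 1.3 ± 0.321 (edgeR FDR 0.0047) and S100A4 by 0.93 ± 0.0744 (edgeR FDR 2.3e-07). CDH11, a cadherin of mesenchymal cells, fell by 1.54 ± 0.257 (edgeR FDR 0.00021) alongside VIM and TNC. Its level was low, with a mean of 4.69 CPM over all libraries. Without HCT-8 replicate 2, FN1 stood at 0.84 (edgeR FDR 0.16) and was not DE. Between the CM groups 0 of the 12 were DE by edgeR and by DESeq2, with 2 at an unadjusted p under 0.05. FN1 stood at 0.39 there. It was DE and higher, at 0.74 (edgeR FDR 0.015), with a covariate for the 3 libraries in which many records failed to align. Without these libraries it was at 0.795, and with 1 library left out it ranged from -0.084 to 0.796. Sensitive CM against HCT-8 had 3 DE mesenchymal genes, with S100A4 higher and TNC and CDH11 lower.

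Among 20 epithelial regulators tested, ESRP1 was lower and EPCAM, an epithelial adhesion molecule, higher in HCT-8/FU (0.61 ± 0.0894, edgeR FDR 6.3e-05), and the others were not DE. EPCAM was at 0.48 and not DE without HCT-8 replicate 2. With sensitive CM replicate 2 as the TMM reference, or without the 3 libraries in which many records failed to align, the count was 4. Of the 20, 0 were DE by edgeR and by DESeq2 in the second comparison, with 7 at an unadjusted p under 0.05. In the third comparison 11 of the 20 passed the FDR alone, 10 higher and 1 lower, against 19.4% of all genes. Of these, ESRP1 was DE and lower, and ST14 and GRHL3 were DE and higher. The count there was 1 by DESeq2, 1 with the correction for GC content and length, and 5 without sensitive CM replicate 2, with 4 higher and 1 lower. Of 14 genes of E-cadherin processing and turnover, ADAM10, the protease that sheds E-cadherin, rose in HCT-8/FU (1.22 ± 0.0983, edgeR FDR 2.5e-07) and between the CM groups (0.99 ± 0.0974, edgeR FDR 4.6e-06). After the correction for GC content and length its values were 0.52 and 0.27, and neither was DE. RNF43, a ubiquitin ligase of the Wnt pathway, rose in HCT-8/FU (0.65 ± 0.0745, edgeR FDR 6.5e-06) and EXOC4, an exocyst subunit, fell by 0.68 ± 0.113 (edgeR FDR 0.00021). RNF43 was at 0.56 and not DE without HCT-8 replicate 2. EXOC4 was not DE without HCT-8 replicate 1 (-0.54) or without the 3 libraries in which many records failed to align (-0.45). In sensitive CM against HCT-8, 0 of the 14 were DE by edgeR and 1 by DESeq2, with 6 at an unadjusted p under 0.05.

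Of 10 colon epithelial markers, 4 were DE and higher in HCT-8/FU, among them KRT20 (1.45 ± 0.217, edgeR FDR 8.3e-05) and VIL1 (0.96 ± 0.0704, edgeR FDR 1.2e-07), both genes of differentiated enterocytes. The markers did not all rise. By the FDR alone 8 of the 10 passed, 6 higher and 2 lower, against 36.7% of all genes. LGALS4 had a mean of 166 CPM in HCT-8 and 112 CPM in HCT-8/FU, and KRT18 had 2258 and 1923 CPM. Sensitive CM against HCT-8 had 4 of 10 DE and higher, and 2 with the correction for GC content and length. Between the CM groups 0 of 10 were DE by edgeR and by DESeq2, with 5 at an unadjusted p under 0.05. Of the fibroblast markers 2 of 9 were tested and PDGFRB was DE and higher in sensitive CM against HCT-8 by edgeR and not by DESeq2, and it was not DE when any of 5 libraries was left out. Of the blood and endothelial markers 3 of 8 were tested, and 0 were DE by edgeR or DESeq2 or had an unadjusted p under 0.05 in the 3 comparisons. The part of other cell types or of differentiation in the values of the 10 genes was not tested.

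**Figure D5:**
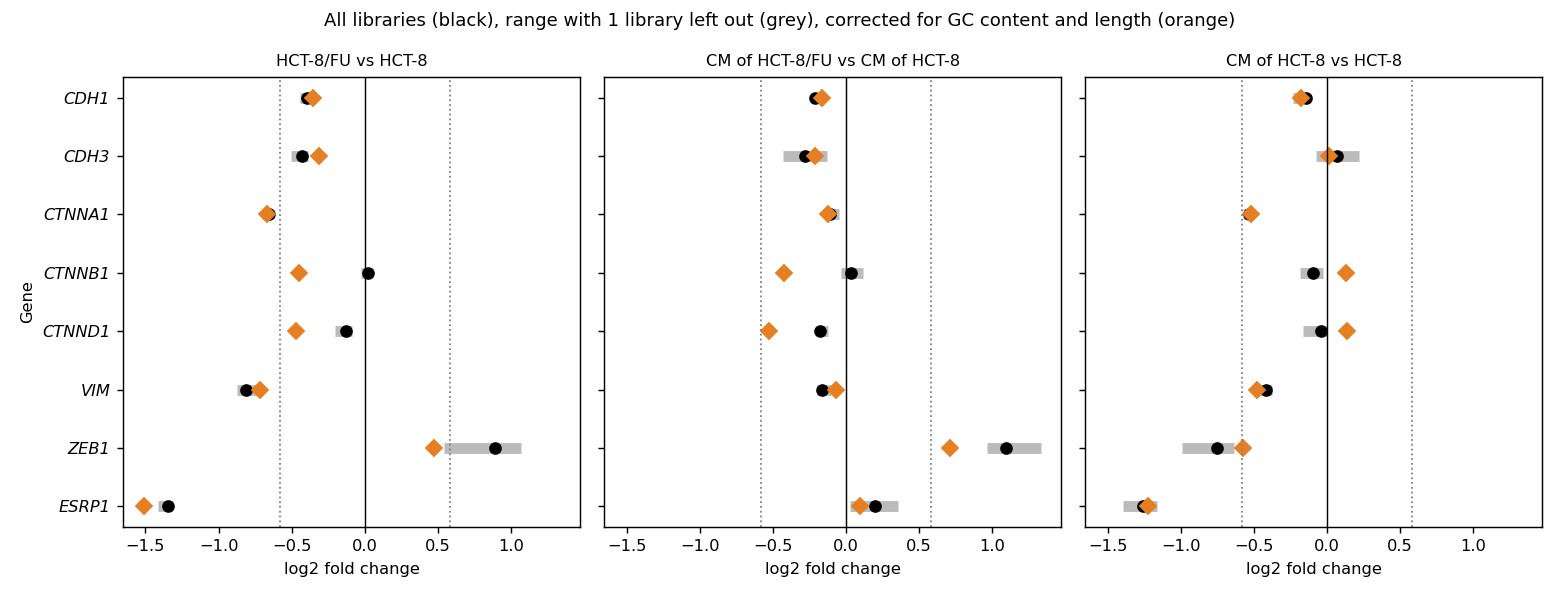
Log2 fold changes (horizontal axes) of the 8 tested genes in 3 comparisons with all libraries (black), as the range with 1 library left out (grey) and after correction for GC content and length (orange); dotted lines mark a 1.5-fold change. CTNNB1, CTNND1 and ZEB1 move with the correction, CTNNB1 from 0.02 to -0.45 in HCT-8/FU, whereas CTNNA1, VIM and ESRP1 stay beyond the 1.5-fold line there. The parts of GC content and of length in this shift were not separated.

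The genes whose pattern over the 8 libraries was nearest to that of CDH1, by root mean square difference of centred log2 CPM among 11695 candidates, were PSAT1 (0.0303), EIF2B2 (0.0342) and SERPINB1 (0.0343), while the median candidate was at 0.240. Nearest to VIM were ESYT1 (0.0286), GTF2IRD1 (0.0333) and DEDD2 (0.0440), with the median candidate at 0.329. None of the other 9 genes was among the 3 nearest to CDH1 or VIM.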

How the data were processed

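RNA-seq was done on 8 libraries, 2 in each of 4 groups taken from the sample titles. The authors aligned the reads with HISAT2 (build GRCh38), used HTSeq 0.11.2 for counts per gene, per the labels, and deposited these raw counts. Lines that name no gene (33.7% to 49.6% of records without a feature, 3.58% to 29.6% not aligned) were left out. The authors' tables of their own comparisons hold log2 fold changes and p-values and were not used.

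Gene names, positions and exonic lengths came from GENCODE 44, on the same build, which holds 56105 of the 64253 identifiers. The counts were fitted with edgeR 4.0.16 (R 4.3.3), with 4 group means over all 8 libraries, TMM with HCT-8 replicate 2 as reference, and filterByExpr, which kept 20305 genes. Tests used edgeR's quasi-likelihood method with Benjamini-Hochberg adjustment over all of these, as groups of 2 are too small for an informative permutation test. Thresholds were those of the study. Standard errors are the log2 fold change over the square root of F. Levels per length are CPM per kb of the union of exons. The correction for GC content and length fits a spline (5 degrees of freedom) per library and subtracts it. The scripts were tested on simulated data. Counts set the precision, and intervals cover 95%.

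The genes and lists were chosen with earlier results of these data known, and from the lists were named at most 2 DE genes in each direction with the largest fold changes in the first and second comparison, at a mean of at least 1 CPM. Other genes of lists were named after their values had been seen, and values of some list genes are not reported here. Nearest patterns were sought among named genes with at least 5 CPM. Alternatives were DESeq2 1.42.0, its size factors, other filters on low counts, only the groups compared, a replicate block, the correction, the FDR alone, another TMM reference, a covariate marking the 3 libraries in which more than 15% of records failed to align, and leaving out each library, where a library left alone in its group was taken to vary like the others. Added after seeing the data were a crossed block, leaving out these 3 libraries, and resistant CM against HCT-8. Replicate numbers come from the titles and did not pair the samples.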

Additional observations from a re-analysis of the deposited data

Results flagged for a closer look

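The difference between the log2 fold change of HCT-8/FU against HCT-8 and that of resistant CM against sensitive CM was tested for each gene. Of the 8 tested genes, 3 passed an edgeR FDR of 0.05, against 11.6% of all genes, and 13 other named genes passed it. Those 13 had been named for large fold changes in the same 2 comparisons. The share of all genes is therefore no background for them. A negative difference means lower in HCT-8/FU than the medium comparison gave. It was -1.54 for ESRP1 (edgeR FDR 4.3e-05), -0.65 for VIM (edgeR FDR 0.0036) and -0.55 for CTNNA1 (edgeR FDR 0.0089). Among other junction genes it was -1.11 for NECTIN1, -0.81 for CLDN3 and -0.62 for CLDN7, and in the other direction 0.75 for LIMA1, 0.90 for CLDN2 and 0.40 for DSP. For mesenchymal genes it was -1.96 for CDH11 and 1.29 for S100A4. For epithelial genes and genes of E-cadherin turnover it was 0.70 for EPCAM, 1.43 for KRT20, 1.08 for VIL1, 0.63 for RNF43 and -0.64 for EXOC4. Their edgeR FDR values ran from 2.2e-06 for S100A4 to 0.036 for DSP. With 1 library left out, the edgeR FDR rose above 0.05 in 7 of 8 fits for DSP, 3 for EXOC4, 2 for CLDN3 and 1 each for CTNNA1, LIMA1, EPCAM and KRT20. Sensitive CM is the reference of the medium comparison, so its own level enters each difference. Against HCT-8, all 16 genes had the same direction in sensitive CM as in HCT-8/FU. The log2 fold change there was -1.75 for CDH11, 1.06 for S100A4 and 0.80 for VIL1, but only 0.11 for DSP. All 16 share the same 8 libraries, and what lies behind them was not tested.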

How the results depend on the processing

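Of 632 refitted values of the 8 tested genes in the 3 comparisons and their difference, 612 kept their call as DE or not DE. A further 12 lost the call, 8 gained it and 0 called values turned. A value that crossed only the FDR limit counts as kept, as for CTNNB1 in HCT-8/FU under the correction for GC content and length. The count of DE genes among the 8 in HCT-8/FU was within 1.5 times of 4 in all 21 alternatives. Between the CM groups it was 1, against 0 with the correction for GC content and length plus the replicate block, where ZEB1 stood at 0.69 (edgeR FDR 0.063), and 3 with the FDR alone. In sensitive CM against HCT-8 it was 2, against 1 in a fit of these groups alone, 1 under the correction, 1 under correction and block, 4 with the FDR alone and 1 to 2 with 1 library left out, and 3, with CTNNA1, by DESeq2, with its size factors or without the 3 libraries with many unaligned records. The difference test gave 1 to 3 genes with 1 library left out, 1 of them without HCT-8/FU replicate 1. Of the 12 lost calls 10 were of ZEB1, the least counted of the 8, and 1 each of CTNNA1 and VIM.

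The replicate numbers did not pair the samples (correlations of deviations of -0.103 for HCT-8 and HCT-8/FU, -0.0325 for the CM groups, 0.167 for HCT-8 and sensitive CM, and -0.138 at the lowest), and the replicate block gave 4, 1 and 2 DE genes of the 8 in the 3 comparisons and 2 in the difference test. The block took the EMT factors in the third comparison from 2 to 1. A crossed block, with the numbers of HCT-8/FU swapped, gave 4357 DE genes of all genes in HCT-8/FU, against 4325 without a block and 4180 with it. Over all genes, the correction for GC content and length turned 2677 higher and 1648 lower in HCT-8/FU into 1446 and 1600, 1619 and 259 between the CM groups into 526 and 428 (1878 DE genes into 954), and 1655 DE genes in sensitive CM into 1089. With sensitive CM replicate 2 as TMM reference HCT-8/FU had 3166 higher and 1192 lower, and with DESeq2's size factors sensitive CM had 617 higher and 1088 lower, against 783 and 872. Depth limits ZEB2 and SNAI2.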
